A study of Caenorhabditis elegans with 4 samples.

Results

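The broad DPY-26 sites of the X chromosome that both ChIP replicates supported were examined in embryos of Caenorhabditis elegans. They were chosen from the series-level peak list as X peaks of 800 bp or more that overlapped, by at least 1 bp, a peak of ChIP replicate 1 and a peak of ChIP replicate 2. The rule kept 355 of the 9008 X peaks, which is 3.94%, out of 9882 peaks in the whole list. Chromosome, width and overlap with the replicate lists chose these sites, and their scores come from the same peak lists. The values below are therefore descriptions, and no difference was tested.

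Chromatin immunoprecipitation and sequencing (ChIP-seq) was run with a polyclonal rabbit antibody raised to a stretch of DPY-26, in wild-type embryos of strain N2, of mixed stages and grown at 20 °C. The labels describe the population as mixed in sex, with males and hermaphrodites. The series has 2 ChIP libraries and 2 input DNA libraries, all of that same strain, genotype and stage, and the 2 ChIP peak lists and the series-level list were used. No mutant and no control antibody was analysed here. Nothing in the labels says that the ChIP replicates came from separate cultures. Depth is unknown, since the lists hold only positions and scores. Positions are on WormBase release WS220, as the file headers state, and regions are given by position because no gene annotation or genome of that release was used here.

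DPY-26 is the kleisin subunit of a condensin, the part that closes the ring formed by the SMC proteins. It serves condensin I, which acts on all chromosomes in mitosis and meiosis, and a condensin specialised for dosage compensation, which binds both X chromosomes of hermaphrodites and lowers their transcription. The dosage compensation complex is loaded at recruitment elements on the X, called rex sites, which can recruit it when detached from the chromosome. From there it spreads to further sites that bind it only as part of the X, many of them at promoters of active genes. Several strong rex sites also lie at boundaries of the topological domains that form on the hermaphrodite X. None of the regions below was matched to a known rex site.

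The 355 sites were a larger share of the X list by length than by number, which follows from the width limit. Their widths ran from 800 bp to 9477 bp, with a median of 1033 bp and quartiles of 883 bp and 1280 bp. Together they spanned 479481 bp, which is 13.3% of the 3615293 bp under all X peaks of the series-level list. The median width of all X peaks was 312 bp. X peaks of 800 bp or more were 6.86% of the X list, 618 in number, and those that overlapped both replicates at any width were 12.1%, 1094 in number.

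Broad sites filled the upper end of the series-level scores. They made up 24 of the 25 highest X scores (96%), 77 of the highest 100 (77%) and 121 of the highest 200 (60.5%), beside 3.94% of all X peaks. Their scores ran from 8.13 to 226.42 with a median of 69.9 and quartiles of 42.2 and 108.9. The 739 narrow replicated X sites, under 800 bp, had a median of 44.8 and quartiles of 26.6 and 69.2, and the highest reached 185.71. The 263 X peaks that were wide enough but missed a replicate had a median of 16.5 and a highest score of 113.87. The ranges of all 3 classes overlapped. Without the demand for a replicate 1 peak 545 sites were kept, and their median score was 43.1. Within the broad class, width and series-level score went together only weakly, with a Spearman's rho of 0.18 across the 355 sites, which share their libraries.

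**Figure D1:**
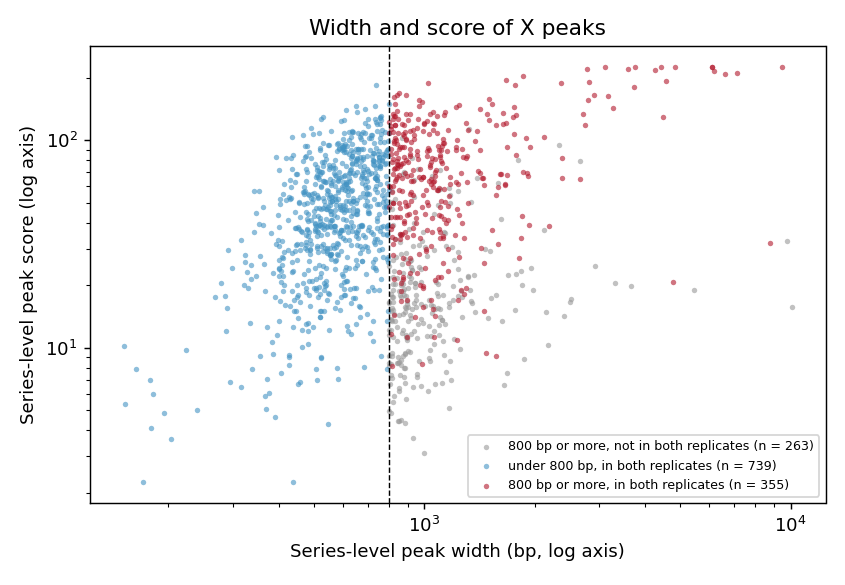
Series-level width (bp, log axis) against series-level score (log axis) for the 355 broad replicated X sites, the 739 narrow replicated X sites and the 263 X peaks of 800 bp or more that missed a replicate; each point is 1 peak and the dashed line marks 800 bp. Broad sites reach 226.42, and the clouds of broad and narrow replicated sites meet at the dashed line.

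Scores just inside and just outside the 800 bp limit overlapped. The narrowest members lay at 2513433 to 2514232, with a width of 800 bp and a score of 60.42, and at 6737235 to 6738035 and 16726478 to 16727278, each 801 bp wide, with scores of 47.79 and 122.95. Just outside lay 3 replicated X peaks of 799 bp, at 1018318 to 1019116, 4711562 to 4712360 and 10555180 to 10555978. Their scores were 57.35, 149.98 and 108.89, within and beyond the range of the members just inside. With 3 sites on each side, a step in score at the limit was not tested.

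In replicate 1 the highest peak overlapping a broad site scored from 51.78 to 3100, with a median of 323.8 and quartiles of 141.3 and 640.3. In replicate 2 the scores ran from 54.23 to 3132.92, with a median of 1211 and quartiles of 691 and 1908. All X peaks of replicate 1 had a median of 162, and all X peaks of replicate 2 had a median of 215. The narrow replicated sites had medians of 135.7 in replicate 1 and 550 in replicate 2. Scores are the authors' own values per peak and are compared only within a list.

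The score of 3100 recurred exactly at the upper end of both replicate lists, in 17 X peaks of replicate 1 and 30 X peaks of replicate 2, and 2 further replicate 2 peaks scored above it. Whether 3100 is a limit of the score is not known, as the scale is not given, so peaks at 3100 may differ in height. The same holds for 226.42, which several sites shared at the top of the series-level list. In replicate 1, where 413 of the 1235 X peaks overlapped a broad site, all 17 peaks at 3100 did so. They fell in 16 of the 355 sites, or 4.51% (Wilson 95% interval 2.79% to 7.20%), beside 0.178% of all X peaks of the series-level list and 1.46% of the replicated X peaks of any width. Of the 739 narrow replicated sites 0 held one, which allows a share of up to 0.406% when taken as 3 counts of 739, and up to 0.517% as the upper Wilson 95% limit. In replicate 2, 31 of the 32 peaks at 3100 or more overlapped a broad site, and the other one overlapped a narrow site. Of all 2542 X peaks of replicate 2, 314 (12.4%) held a broad site. The peaks at 3100 or more touched 45 broad sites, or 12.7% (interval 9.61% to 16.5%). This stands beside 2.03% of all X peaks of the series-level list and 5.67% of the replicated ones. The narrow share was 2.30%, from 17 sites. The intervals and upper limits treat sites as independent draws and cover counting error only. The sites are all those that the lists hold, and neighbouring ones can share a replicate 2 peak.

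The replicates ranked the broad sites alike in part. Across the 355 sites Spearman's rho between the highest replicate 1 and replicate 2 scores was 0.60, and over the 309 sites below 3100 in both lists it was 0.52. Sites inside the same replicate 2 peak share its score, and with 1 site kept per replicate 2 peak rho was 0.68 over 314 sites. Series-level scores followed replicate 1 (rho 0.80) more closely than replicate 2 (rho 0.54). How the libraries entered the series-level list is not stated in the labels or headers.

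**Figure D2:**
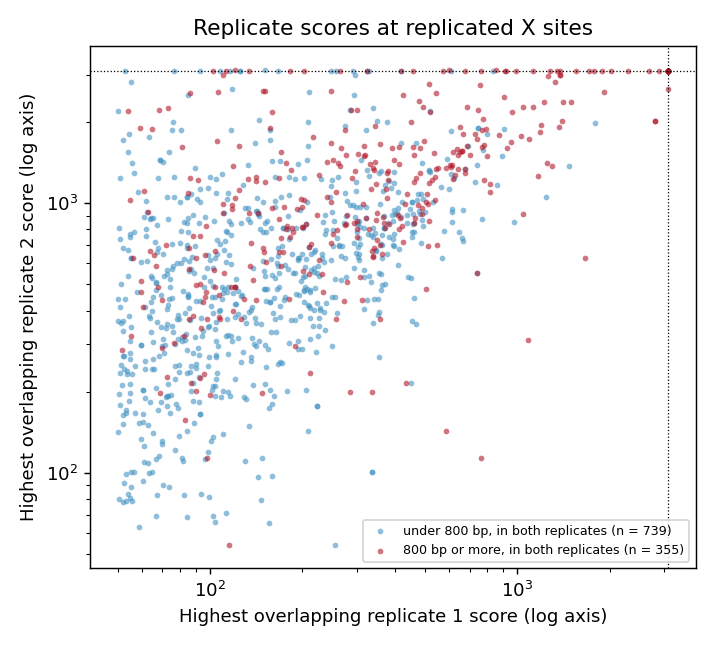
Highest overlapping peak score in replicate 1 (log axis) against replicate 2 (log axis) at the 355 broad and 739 narrow replicated X sites; each point is 1 site and the dotted lines mark 3100. At the right edge, 15 of the 16 broad sites at 3100 in replicate 1 are also at 3100 in replicate 2, and no narrow site reaches the vertical line.

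Individual sites could stand far apart in the 2 replicates. The lowest replicate 1 score among the members was 51.78, at 4798457 to 4799267, where replicate 2 scored 285.43. The next lowest, 54.03 at 1510961 to 1512779, had 2194.16 in replicate 2, and the one after it, 55.02 at 10514638 to 10515447, had 1025.85. Both of these sites were near the bottom of the class in replicate 1 but above its lower quartile of 691 in replicate 2. In the other direction, the site at 12171067 to 12173189 scored 763.91 in replicate 1 and 113.52 in replicate 2. It shared a replicate 2 peak of 18985 bp with the site at 12182646 to 12183688, which scored 97.67 in replicate 1. The lowest replicate 2 score, 54.23, belonged to the site at 9509675 to 9510508, inside a replicate 2 peak of 13234 bp, with 115.64 in replicate 1. All 3 sites with the lowest replicate 2 scores thus lay in replicate 2 peaks much wider than the class median of 4180 bp. The 2 sites under the highest replicate 2 score, 3132.92, were picked out after the values had been seen. They lay at 10146282 to 10147314 and 10148256 to 10149213 and scored 599.14 and 120.37 in replicate 1, with series-level scores of 107.4 and 22.89.

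By class median, the widest sites had the highest replicate scores, although single sites did not follow this order. Width classes were set after the widths had been seen. The 162 sites under 1000 bp had a median replicate 1 score of 275 and the 127 sites from 1000 bp to 1485 bp had 279. The 47 sites from 1500 bp to 2903 bp had a median of 764, and the 19 sites of 3000 bp or more had 3100. A score of 3100 was reached in replicate 1 by 15 of those 19 sites and by 1 of the 336 narrower ones. In replicate 2 the medians were higher from class to class, at 873, 1186, 2194 and 3100, and 16 of the 19 widest sites were at 3100, beside 29 of the narrower ones. The ranges of neighbouring classes overlapped in both replicates. Median series-level scores were 67.6, 62.9, 93.2 and 215.6 in the same order, so the second class lay slightly below the first. A site's replicate score is the highest of its overlapping peaks. In the same order, sites held a mean of 1.01, 1.11, 1.38 and 2.47 replicate 1 peaks, so the widest had more peaks to take it from. Widths come from the series-level list, and how the libraries entered that list is not stated. Widths and scores are therefore not taken as independent.

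**Figure D3:**
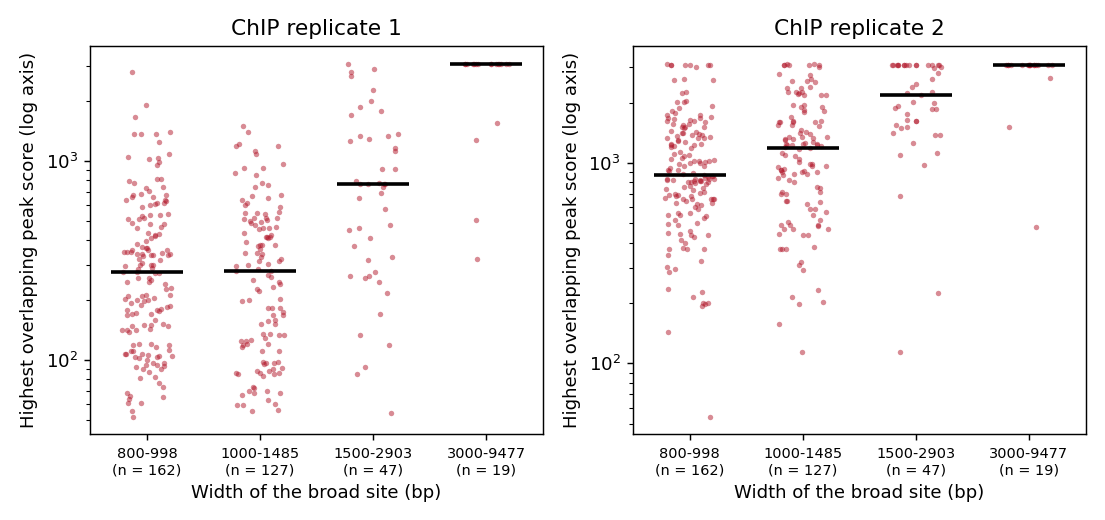
Highest overlapping peak score (log axis) in ChIP replicate 1 and ChIP replicate 2 at broad X sites of 4 width classes (bp, number of sites in parentheses); points are sites and black bars are medians. In replicate 1 the medians are near 275 and 279 in the first 2 classes, 764 in the next and 3100 in the widest.

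The 16 sites at 3100 in replicate 1 were spread along nearly the whole X. They ran from 805293 to 17546511. Distances between neighbours ranged from 422 kb to 1733 kb with a median of 1099 kb. Of the 17 full 1 Mb bins of the chromosome, 11 held 1 such site, 2 held a pair and 4 held none. They were 2811 bp to 9477 bp wide, with a median of 4463 bp, and lay in replicate 2 peaks of 5258 bp to 17858 bp. Series-level scores ran from 129.22 to 226.42. In replicate 2, 15 of them were at 3100. The exception lay at 5427509 to 5431993, with a replicate 2 score of 2649.81 and the lowest series-level score of the group, 129.22.

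Most broad sites held 1 replicate 1 peak, while several of the highest-scoring ones held a chief peak with weaker ones beside it. The site at 8032218 to 8041694 was the widest, at 9477 bp, and held 6 replicate 1 peaks, the most of any member. The chief one was 2008 bp wide, at 8035594 to 8037601, and scored 3100. The other 5 scored 842.37, 568.11, 496.92, 306.34 and 197.27, and lay on both sides of it. A single replicate 2 peak of 15762 bp, at 8028232 to 8043993, enclosed the whole site. The site at 11934279 to 11939112 held 4 replicate 1 peaks, of which the chief one again scored 3100, while the others had 938.95, 324.99 and 159.29. The site at 9463232 to 9469319 was built otherwise, with a pair of high replicate 1 peaks. They were 2027 bp wide at 3100 and 1848 bp wide at 3009.79, beside a small peak at 104.08. The site at 11090238 to 11096864 held 2 replicate 1 peaks that were both at 3100, of 1907 bp and 969 bp. At 17542914 to 17546511, the last member on the chromosome, a 978 bp peak scored 3100 and its neighbour scored 1856.96.

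**Figure D4:**
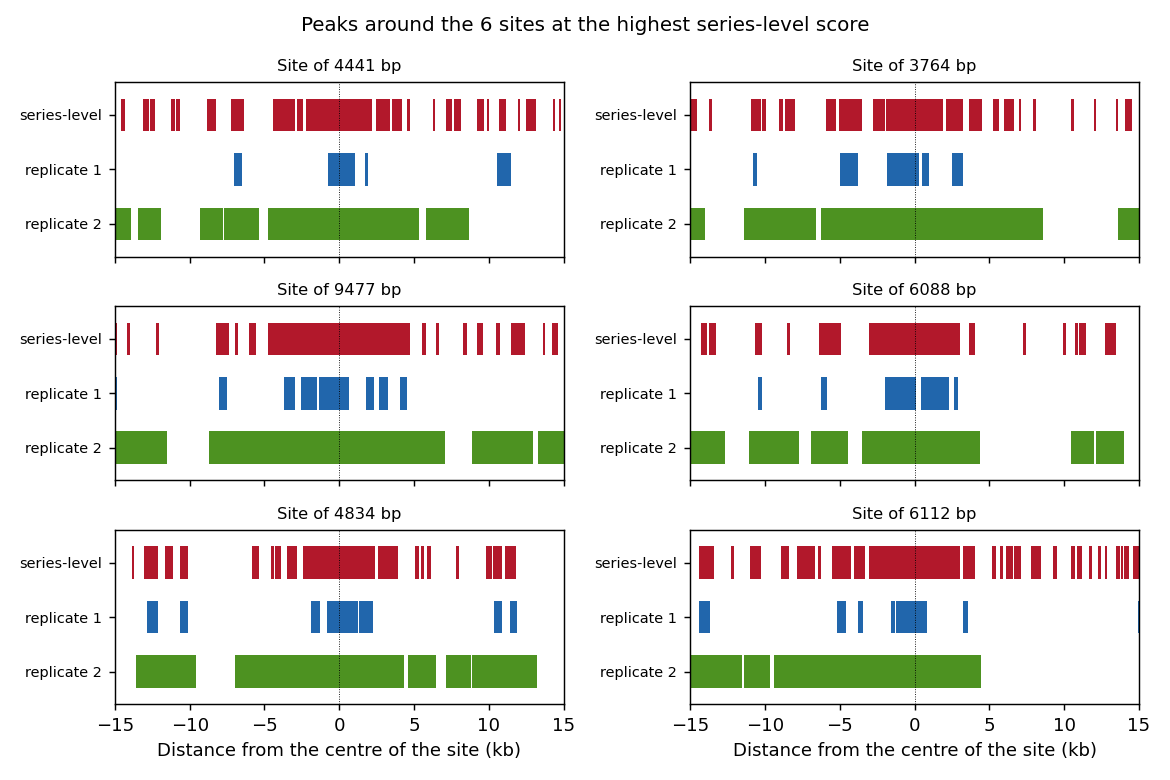
Peaks of the series-level list, replicate 1 and replicate 2 within 15 kb of the centre of the 6 broad sites that share the highest series-level score; the x axis is the distance from the site centre in kb and each bar is 1 peak. In each map 1 replicate 2 peak encloses the central site, and replicate 1 shows between 2 and 6 separate peaks within it.

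Other high sites held from 1 to 3 replicate 1 peaks. The site at 4206090 to 4213209 was 7120 bp wide with a series-level score of 211.74 but held only 1 replicate 1 peak, of 3359 bp at 3100. The site at 1343488 to 1346272, with a series-level score of 220.08, held 1 replicate 1 peak of 1566 bp at 2692.7 and lay in a replicate 2 peak of 12897 bp at 3100. At 2994404 to 2998844 the chief replicate 1 peak of 1834 bp at 3100 was joined by a peak of 181 bp that scored 65.23. At 14522924 to 14529103 a peak of 3012 bp at 3100 lay between peaks that scored 382.84 and 255.03. At 805293 to 809566 the peak at 3100 was only 842 bp wide, between peaks of 661.29 and 76.56. The sites at 6295074 to 6298837, 13698184 to 13704295 and 16054880 to 16057995 each held a peak of 1772 bp to 2156 bp at 3100 and 1 weaker peak, which scored between 79.24 and 200.58.

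Not every wide site was strong. Of the 19 sites of 3000 bp or more, 4 stayed below 3100 in replicate 1. The second widest member, 8804 bp at 5819824 to 5828627, had a series-level score of 31.86 and rank 975 in the list. It held 5 replicate 1 peaks, and the highest of them scored 320.18, the lowest 69.66. Replicate 2 covered it with a peak of 15032 bp at 1506.02. The first member on the chromosome, 4782 bp at 109485 to 114266, had a series-level score of 20.64, with 506.03 in replicate 1 and 480.85 in replicate 2. Its only replicate 1 peak was 4954 bp wide, the widest at any member. The other 2 lay at 1385820 to 1390380, with 1556.78 in replicate 1, and at 11603447 to 11606721, with 1283.29. Both were at 3100 in replicate 2. Their series-level scores were 192.52 and 142.43.

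Replicate 1 peaks were mostly narrower than the sites. The highest replicate 1 peak at a site had a median width of 623 bp, a median of 0.573 times the width of the site. Replicate 1 peaks covered a median of 62.7% of a site, with quartiles of 45.8% and 75.5%, and under 50% of it in 110 sites. The midpoint of the highest replicate 1 peak lay a median of 105 bp from that of the site, on either side. At narrow replicated sites this distance was 47.5 bp. A peak that lies within a site cannot be far from its midpoint, so centring was not tested. Of the 413 replicate 1 peaks that touched a broad site, 345 lay wholly within one. Most sites, 308 of 355, held 1 replicate 1 peak, 38 held 2 and 9 held 3 or more. The 47 sites with 2 or more are 13.2%, beside 4.39% of the replicated X peaks of any width and 0.622% of all X peaks. Width, which the rule set, was not held equal in these shares. Among narrow replicated sites 1 of 739 held more than 1.

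A few sites lay the other way round, wholly within a wider replicate 1 peak. There were 8 of them in 6 replicate 1 peaks, and their median series-level score was 29.8. The sites at 6617522 to 6618387 and 6618615 to 6620548, picked after their values had been seen, lay in the same replicate 1 peak of 3767 bp at 2807.89. These 2 sites had series-level scores of only 16.75 and 38.99, and 2025.08 in replicate 2. The closest pair of members, at 1752377 to 1753607 and 1753652 to 1755126, was 44 bp apart and shared a replicate 1 peak of 2917 bp at 120.36. Their series-level scores were 10.93 and 9.44, among the lowest of the class. Another pair 44 bp apart, at 4960830 to 4963491 and 4963536 to 4964476, shared a replicate 1 peak of 3586 bp at 1376.96, with series-level scores of 65.21 and 14.12. In these pairs the series-level list split what replicate 1 listed as 1 peak.

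The lowest series-level score of the class, 8.13, belonged to the site at 6090830 to 6091643. Only 1.11% of it was covered by its replicate 1 peak, which scored 659.97 and lay mostly outside, so only the edge of the site met the overlap rule. The next lowest, 8.31 at 3101466 to 3102450 and 9.15 at 4555974 to 4557544, were covered to 30.3% and 18.8% and scored 60.75 and 85.23 in replicate 1. These 3 sites ranked 4227, 4166 and 3777 in the series-level list.

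In replicate 2 every broad site lay entirely inside 1 peak. This was not particular to the class, since all 739 narrow replicated sites did too, and of the 6171 X peaks that overlapped a replicate 2 peak only 42 were cut by its edge. The replicate 2 peak was a median of 3.38 times as wide as the broad site within it. The 355 sites fell in 314 replicate 2 peaks, which are 12.4% of the 2542 on the X. Of these, 281 held 1 broad site, 26 held 2, 6 held 3 and 1 held 4. A further share of them, 63 in number, also held narrow replicated sites, and in 94 the broad site was the only series-level peak.

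Replicate 2 peaks that held a broad site were wider and higher than the others on the X. Their median width was 3741 bp, against 2394 bp for the 590 that held only narrow replicated sites and 2143 bp for the 1638 that held neither. Their median scores were 1099, 480 and 132 in that order, with wide overlap, from 54.23 to 3132.92 in the first group and from 50 to 1503 in the last. The rule required a replicate 2 peak of the first group to overlap a wide peak, so these medians are a description. In 288 of the 314 peaks, or 91.7%, a broad site had the highest series-level score within the replicate 2 peak. These include the 94 peaks in which it was the only series-level peak and so had no rival. For narrow sites in the 590 peaks without a broad one the count was 565, or 95.8%. Peaks with a lone narrow site were not taken out of that count, so neither share is read as a result.

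Along the chromosome the broad sites were found in every 1 Mb bin. The 17 full bins held from 10 to 30 of them, with a mean of 20.3 ± 6.51 (SD over bins), beside 42.2 ± 7.55 narrow replicated sites. The highest counts were 30 between 2 Mb and 3 Mb and 29 between 4 Mb and 5 Mb, and the bin between these held only 10, as few as the first. As a share of the X peaks in a bin, broad sites ran from 2.02% to 5.48%. The bin from 3 Mb to 4 Mb held 495 X peaks and the lowest of these shares, so its low count did not go with few peaks.

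Neighbouring broad sites were a median of 28.8 kb apart, edge to edge, with quartiles of 8.41 kb and 62.0 kb. Without the demand for a replicate 1 peak the median was 16.5 kb, and with a width limit of 600 bp or 1000 bp it was 14.9 kb or 56.9 kb, so the distance depends on how many sites the rule keeps. Of the 354 distances, 57 were under 5 kb and 56 over 100 kb. The largest stretch without a broad site ran for 332 kb, from the site ending at 3317728 to the one starting at 3649816. The sites at its borders scored 19.44 and 110.93 in the series-level list, 87.72 and 425.65 in replicate 1, and 380.89 and 715.94 in replicate 2. The next largest, of 292 kb, lay between the sites at 11603447 to 11606721 and at 11898643 to 11899726. Both of those were high, with series-level scores of 142.43 and 130.95, replicate 1 scores of 1283.29 and 1500.83, and replicate 2 scores of 3100 and 2370.24.

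Peaks beside the broad sites were about as dense and as high as on the X at large. Within 1 kb of an edge there were 0.489 other series-level peaks per kb, and 0.570 from 1 kb to 2 kb. Between 5 kb and 10 kb there were 0.559, and between 20 kb and 50 kb 0.532, against 0.508 over the whole X. Around narrow replicated sites the values were 0.386, 0.488, 0.538 and 0.514 at the same distances. The median score of the flanking peaks stayed between 7.06 and 7.90 at all distances from broad sites, beside 7.10 for all X peaks. Beside the 19 widest sites the density was higher, at 0.789 per kb within 1 kb and 0.816 from 1 kb to 2 kb, and it came down to 0.532 beyond 20 kb. These rest on 30 and 31 peaks in the nearest pair of distances, and no test was made. Where flanks of neighbouring sites overlap, a peak is counted for each.

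**Figure D5:**
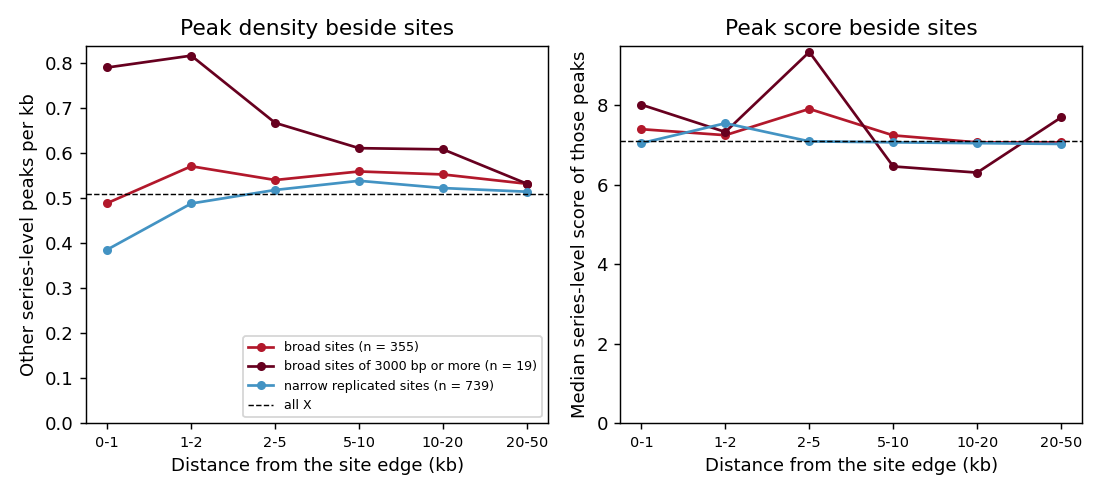
Other series-level peaks per kb and their median series-level score by distance from the site edge (kb) for all 355 broad sites, the 19 of 3000 bp or more and the 739 narrow replicated sites; the dashed line is the whole X (0.508 peaks per kb, median score 7.10). The widest sites start at 0.789 peaks per kb and meet the other lines at 20 kb to 50 kb, while the scores stay between 6.30 and 9.33.

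Of the 263 wide X peaks that missed the rule, 190 (72.2%) overlapped replicate 2 alone, 44 (16.7%) replicate 1 alone and 29 (11%) neither. Among the 7914 X peaks of any width that missed a replicate these shares were 64.2%, 1.11% and 34.7%, and the rule itself sorted these peaks by overlap, so nothing is read from them. Among the 263 wide peaks the median series-level scores were 15.5, 25.1 and 16.5 in the same order, against 69.9 for the broad replicated sites. Those without replicate 2 included strong replicate 1 peaks, and the 3 highest were picked after their values had been seen. They lay at 289815 to 295280 (5466 bp), 16931180 to 16933697 and 4025936 to 4029243, and scored 2248.63, 1908.26 and 1739.07 in replicate 1. Their series-level scores were low, at 18.89, 17.09 and 20.57. Of the 24 X peaks of 3000 bp or more, 5 missed a replicate, beside 263 of the 618 of 800 bp or more and 7914 of all 9008. A wider peak meets the 1 bp overlap rule more easily, so nothing is read from these counts. None of the 5 scored above 32.55 in the series-level list.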

How the data were processed

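Peak lists of ChIP replicates 1 and 2 (1463 and 2671 peaks) and the series-level list were used. Reads were aligned with BWA to ce10, per the submitters' processing notes, and the authors called peaks with MACS (replicates) and MACS v2 (series level), per the file headers and source columns. Neither labels nor headers state whether input served as control, the filters, or whether replicates were pooled. The deposited score per peak is the authors' value, of a scale that is not given, starting at 50.1, 50 and 1.30 in the 3 lists. The other values are the deposited start and end of each peak.

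Overlap needed 1 bp, and distances ran from edge to edge. Flanking peaks were assigned by midpoint. A site's replicate score was the highest overlapping one. The planned share at a list's highest score was taken at 3100 or more, because 2 replicate 2 peaks exceed that recurring value. Medians, Wilson intervals and Spearman's rho were computed with Python 3.11.15, numpy 2.4.6, pandas 2.3.3 and scipy 1.17.1, figures with matplotlib 3.10.9, after the overlap code was tested on simulated lists. No p-values were computed, since the rule used these libraries and 2 ChIP libraries of 1 group leave no contrast between samples. Named regions are the 12 highest-scoring and 5 widest members, the 3 on each side of 800 bp, the 3 with most replicate 1 peaks, the 3 lowest in each list, those beside the 2 largest gaps, the closest pairs, and the first and last. Others are named as chosen later. Members and rules were chosen with earlier results of these data known.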

Additional observations from a re-analysis of the deposited data

How the results depend on the processing

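All results are descriptions, and of 72 values under alternatives 39 stayed and 33 moved. A value stayed if it lay within the 95% interval of the main value (for counts, within 1.5 times). These intervals treat sites as independent, and the alternatives cut the same peak lists anew. Staying or moving is thus a label for the size of a change, not a test. Only rho can be negative among these measures, and it kept its sign. No paired analysis was possible because the result comes from no test and the input libraries have no peak list here. The width limit sets most values. With a minimum of 600 bp there were 680 sites, with a median width of 816 bp, a median series-level score of 65.4, 2.35% and 7.79% of sites at 3100 in replicates 1 and 2, 67.4% covered by replicate 1 and a median distance of 14.9 kb. With 1000 bp there were 193 sites, 1242 bp wide, with 8.29% and 19.7% at 3100, 56.5% covered, 56.9 kb apart and rho 0.66. Asking for 50% cover by each replicate gave a width of 991 bp, a score of 81.8, 70.2% covered and 41.1 kb. With replicate peaks of 100 or more the score was 81.3. Merging series-level peaks within 500 bp gave 559 sites of 1296 bp with a score of 63.5, 42.0% covered by replicate 1, 7.33% at 3100 in replicate 2, 17.5 kb apart and 0.35 flanking peaks per kb, against a median of 0.55. Below 3100 in both lists rho was 0.52. Chosen after seeing the data, 1 site per replicate 2 peak gave rho 0.68, and only the highest replicate 2 score gave 0.563% of sites.

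Leaving out a replicate, the number of sites ran from 399 (without replicate 2) to 545 (without replicate 1), the median width from 977 bp to 1055 bp, the median series-level score from 43.1 to 66.9 and the median distance from 16.5 kb to 24.0 kb. Without replicate 1 the number, the score (69.9 to 43.1) and the distance (28.8 kb to 16.5 kb) each moved by more than 1.5 times.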
